A study of Mus musculus with 6 samples.

Results

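Cholesterol synthesis was examined in mouse embryonic stem (mES) cells through 8 genes chosen by name: 6 enzymes of the pathway (*Hmgcs1*, *Idi1*, *Fdft1*, *Sqle*, *Lss* and *Dhcr7*) and the regulators *Srebf2* and *Insig1*. The deposited lists held 16668 genes, and 7 of the 8 had a row there. *Hmgcs1*, the synthase that makes HMG-CoA at the head of the pathway, had no row under this symbol or an older one and was not analysed here. All 7 listed genes passed the filter on low values (a mean of 0.5 RPKM or more).

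E14 is a feeder-independent mES cell line of strain 129/Ola, and all 6 libraries came from cells at passages 3 to 5 on gelatin in N2B27 medium with 2i (PD0325901 and CHIR99021, inhibitors of MEK and GSK3) and LIF. The labels name 3 groups of 2 libraries: control (genotype given as wild type), Ring1B-KD (knockdown of Ring1B) and Dzip3-KD (knockdown of Dzip3), the last 2 targets being ubiquitin ligases of histone H2A. According to the methods of the study, the knockdowns were transient siRNA transfections, with a control siRNA in the control cells, and the duplicates were biological. No source ties a library to a transfection or a date, so p-values here measure only the spread between these libraries.

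Cells make cholesterol from acetyl-CoA by way of mevalonate, isoprenoid units, squalene and lanosterol. SREBP2, the product of *Srebf2*, is held in the endoplasmic reticulum by Scap and the Insig proteins while sterols are abundant. When sterols run low it moves to the Golgi, is cut by 2 proteases and switches on most enzymes of the pathway, as well as *Insig1* and *Srebf2* itself. The pathway genes are known for rising and falling together with sterol supply, and the comparison asked whether they did so across these libraries.

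The labels and the names of the deposited files did not match in 4 of the 6 libraries. By number and condition word, the library labelled control 1 was file 01 (control), control 2 was file 02 (Ring1BKD), and Ring1B-KD 1 was file 03 (Dzip3KD). Ring1B-KD 2 was file 04 (control), Dzip3-KD 1 was file 05 (Ring1BKD), and Dzip3-KD 2 was file 06 (Dzip3KD). Levels are in RPKM, that is, reads scaled for exon length in kilobases and for the total of mapped reads. *Rnf2*, which encodes Ring1B, had 30.6 and 20.4 RPKM under the label control, 26.8 and 28.8 under Ring1B-KD and 19.4 and 28.2 under Dzip3-KD. Both low *Rnf2* values belonged to the files with the word Ring1BKD, and neither to a library labelled Ring1B-KD. *Dzip3* was at 2.24, 2.68, 1.18, 1.89, 1.70 and 1.31 RPKM in the same order of labels, lowest in the 2 files with the word Dzip3KD. Group names below therefore stand for labels only. The first 3 file numbers (the first set) hold both libraries labelled control and Ring1B-KD 1, and the last 3 (the last set) hold Ring1B-KD 2 and both labelled Dzip3-KD. The leading principal component took 40.2% of the variance and separated these sets, so set and label cannot be told apart between control and Dzip3-KD.

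The libraries held 3015348 to 3583611 mapped reads, as recovered from the steps in the RPKM values. The 6 ES cell markers were at 40.0 to 433 RPKM each. Of 20 listed markers of other cell types, 14 stayed under 1 RPKM in all libraries and 10 were at 0 in at least 1, among them *Cdx2* in all 3 of the last set. Their summed levels differed between the sets without overlap for primitive endoderm (1.75 to 2.79 RPKM in the first set, 0.999 to 1.15 in the last), trophectoderm (1.75 to 4.97 against 0.485 to 1.23) and neuroectoderm (4.18 to 6.45 against 9.62 to 11.6). The sums overlapped for mesoderm (0.430 to 0.989 against 0.617 to 0.879) and fibroblasts (1.18 to 3.10 against 2.16 to 2.30). Of all single genes tested, 13.1% were higher and 15.5% lower in the last set without overlap. The part of these markers in the results below was not tested.

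In bulk RNA, fewer cells expressing a gene and less RNA per cell cannot be told apart.

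The promoters of the members are shown first, because SREBP2 is known to act from a sterol response element together with NF-Y and Sp1. The RefSeq promoter table (GRCm38.p6, from 250 bases before to 50 after the start) held 5 of the 7 listed members, namely *Insig1*, *Dhcr7*, *Lss*, *Idi1* and *Srebf2*, and also *Hmgcs1*. On both strands, the element core TCACNCCAC occurred in 408 of 32851 promoters (1.24%), the NF-Y box CCAAT in 37.4% and the Sp1 box GGGCGG in 35.7%. The NF-Y and the Sp1 box were each present in 5 of the 5 members, and the element core in 0 of 5. Absence here says only that these letters do not lie in this window. In the stretches below, read on the plus strand of GRCm38.p6, capitals mark the element core in *Hmgcs1* and the NF-Y box in the others, where ATTGG is CCAAT on the other strand.
Hmgcs1 (chr13:119690189-119690247): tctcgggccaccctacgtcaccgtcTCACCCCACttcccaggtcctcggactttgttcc
Insig1 (chr5:28071171-28071225): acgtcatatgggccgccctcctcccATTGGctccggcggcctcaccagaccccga
Srebf2 (chr15:82147109-82147163): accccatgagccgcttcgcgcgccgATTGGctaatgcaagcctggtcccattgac
Idi1 (chr13:8885536-8885605): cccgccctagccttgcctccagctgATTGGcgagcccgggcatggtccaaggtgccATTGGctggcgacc
Lss (chr10:76531518-76531572): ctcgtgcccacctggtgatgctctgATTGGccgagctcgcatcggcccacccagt
Dhcr7 (chr7:143830104-143830194): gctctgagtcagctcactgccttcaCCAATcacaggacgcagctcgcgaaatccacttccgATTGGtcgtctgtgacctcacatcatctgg
In *Hmgcs1* the element core began 137 bases before the start. In *Idi1* and *Dhcr7* the window held 2 NF-Y boxes, and in *Insig1*, *Srebf2* and *Lss* 1. *Dhcr7* has several listed starts, and the stretch shown belongs to the only one of them with an NF-Y box.

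The regulators were the members with the highest levels per length. *Srebf2* (chromosome 15, 81977696 to 82035806, plus strand, mm9) hosts the microRNA gene *Mir33* in an intron. *Srebf2* had 31.9 and 29.5 RPKM under the label control, 25.9 and 30.5 under Ring1B-KD and 32.9 and 32.2 under Dzip3-KD. Its reads numbered 400 to 527 per library, and its lowest value was that of the library labelled Ring1B-KD 1, with the other 5 between 29.5 and 32.9 RPKM. *Insig1* (chromosome 5, 28397952 to 28405201, plus strand), whose product retains SREBP2 in the endoplasmic reticulum and promotes the breakdown of HMG-CoA reductase, had 28.1 and 30.3 RPKM under the label control, 23.1 and 33.1 under Ring1B-KD and 31.2 and 29.5 under Dzip3-KD. The lowest and the highest value of *Insig1* thus both carried the label Ring1B-KD, and their 95% counting intervals (from 20.02 to 26.4 and 29.4 to 37.2 RPKM, exact Poisson) did not overlap.

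*Idi1* encodes the isomerase of isopentenyl diphosphate, the step that readies isoprenoid units for joining. It lies on chromosome 13 from 8884852 to 8891641 (plus strand). The gene had 18.4 and 17.5 RPKM under the label control, 16.2 and 12.9 under Ring1B-KD and 12.2 and 15.2 under Dzip3-KD. The 3 values of the first set lay above the 3 of the last, as for 15.5% of all genes tested. *Fdft1* encodes squalene synthase, the first enzyme that commits carbon to sterols. Its position is chromosome 14, 63763990 to 63796630 (minus strand), where it overlaps *Ctsb* on the other strand. Both libraries labelled control (9.12 and 8.64 RPKM) lay above both labelled Ring1B-KD (6.57 and 6.83) and both labelled Dzip3-KD (6.71 and 6.90). The share of all genes separated in this way by label was not computed. Whole reads could not be recovered for *Fdft1*.

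*Sqle* encodes squalene epoxidase, a rate-limiting enzyme of the sterol part of the pathway, on chromosome 15 from 59146632 to 59162747 (plus strand). *Sqle* had 27.9 and 29.3 RPKM under the label control, 25.8 and 22.7 under Ring1B-KD and 23.8 and 28.3 under Dzip3-KD. The 3 groups spanned 22.7 to 29.3 RPKM, and the Dzip3-KD range overlapped both others. *Lss* encodes lanosterol synthase, which closes the sterol rings, on chromosome 10 from 75994333 to 76019883 (plus strand). It overlaps *4930483K19Rik* on the minus strand, and since the counting was not stated to use strand, reads of overlapping genes cannot be told apart for *Lss* and *Fdft1*. *Lss* had 4.61 and 4.33 RPKM under the label control, 5.53 and 4.11 under Ring1B-KD and 2.76 and 4.19 under Dzip3-KD. The extremes were Ring1B-KD 1 (118 reads, interval 4.57 to 6.62 RPKM) and Dzip3-KD 1 (57 reads, 2.09 to 3.57 RPKM).

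*Dhcr7* encodes 7-dehydrocholesterol reductase, which makes cholesterol in the last step of one branch, on chromosome 7 from 151009050 to 151034315 (plus strand). *Dhcr7* had 8.24 and 8.49 RPKM under the label control, 8.63 and 9.35 under Ring1B-KD and 13.8 and 10.9 under Dzip3-KD. Both libraries labelled Dzip3-KD lay above the other 4, with 127 and 110 reads against 70 to 87. How many of all genes were separated in this way was not computed. The interval of the highest (11.5 to 16.4 RPKM) did not overlap that of control 1 (6.43 to 10.4 RPKM), but, with its lower end at 11.51, it overlapped those of Ring1B-KD 2 (7.49 to 11.53 RPKM) and Dzip3-KD 2 (8.96 to 13.1 RPKM). PCR copies cannot be told from separate molecules, so these intervals cover counting error only.

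**Figure D1:**
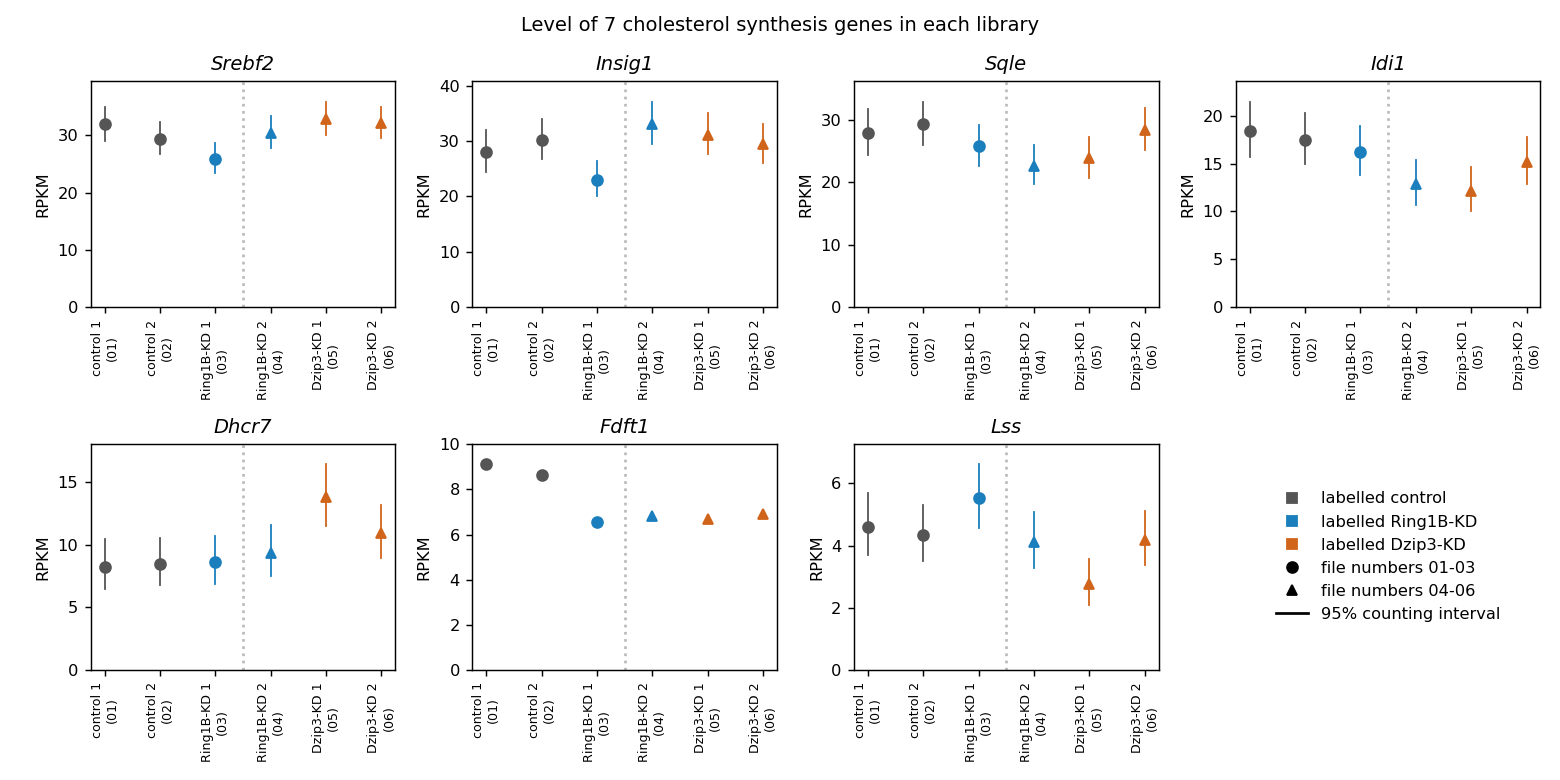
RPKM (linear axis from 0) of the 7 listed members in the 6 libraries in file order, 1 panel per gene, with bars for the 95% exact Poisson counting interval where whole reads were recovered. *Dhcr7* is highest in the libraries labelled Dzip3-KD (13.8 and 10.9 RPKM), where *Lss* has its lowest value (2.76 RPKM). The share of all genes highest in these libraries was not computed.

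Ordered by mean level over the 6 libraries, the members ran from *Srebf2* (30.5 ± 2.55 RPKM, SD, n = 6) through *Insig1* (29.2 ± 3.46), *Sqle* (26.3 ± 2.64), *Idi1* (15.4 ± 2.48), *Dhcr7* (9.90 ± 2.14) and *Fdft1* (7.46 ± 1.11) to *Lss* (4.25 ± 0.896 RPKM). The ranges of *Srebf2*, *Insig1* and *Sqle* overlapped, as did those of *Idi1* and *Dhcr7* and of *Dhcr7* and *Fdft1*. The ranges of *Sqle* and *Idi1* did not overlap, nor did those of *Fdft1* and *Lss*. Of all listed genes, 95.5% had a lower mean than *Srebf2* and 63.3% a lower one than *Lss*. The highest library exceeded the lowest by a ratio of 1.27 for *Srebf2*, 1.29 for *Sqle* and 2.00 for *Lss*. On the log2(RPKM + 1) scale, the SD over libraries was 0.12 for *Srebf2*, smaller than that of all but 7.64% of the genes tested, and 0.14 for *Sqle* (13.1% of genes smaller). It was 0.26 for both *Lss* and *Dhcr7*, with 57.4% and 57.5% of genes smaller. Among genes of similar mean level, the shares with a smaller SD were 9.26% for *Srebf2*, 16.1% for *Sqle*, 58.7% for *Lss* and 65.1% for *Dhcr7*.

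By label, none of the members passed the test between groups. Tests were run with limma on log2(RPKM + 1) over 11538 genes, with Benjamini-Hochberg adjustment and a threshold of 0.05, and the differences below are on this log2 scale, which understates the change of low genes. For Ring1B-KD against control, 0 of 7 members were called beside 0% of all genes, and 589 genes, no member among them, had an unadjusted p below 0.05. A model without moderation of the spread called 0 genes and put *Fdft1* alone among the members below 0.05 unadjusted. *Fdft1* was at 8.88 ± 0.337 RPKM (SD, n = 2) in control and 6.70 ± 0.184 RPKM in Ring1B-KD, a difference of -0.36 (SE 0.18, 95% interval -0.76 to 0.04, limma adjusted p = 0.902). *Idi1* differed by -0.29 (interval -0.73 to 0.15) and *Sqle* by -0.23 (-0.63 to 0.16). Without Ring1B-KD 2 these values were -0.14 for both, and without Ring1B-KD 1 *Idi1* was at -0.45. With the set as a block the estimates are by design those without Ring1B-KD 2, so they are no separate check. *Srebf2* went from -0.12 to -0.01 without Ring1B-KD 1 and to -0.23 without Ring1B-KD 2. The remaining 4 lay between -0.12 for *Srebf2* and 0.09 for *Dhcr7*, and every interval included 0. Of the 7 members 2 were higher and 5 lower, with a median of -0.12 beside -0.02 over all genes tested.

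For Dzip3-KD against control, again 0 of 7 members and 0% of all genes were called, while 1411 genes had an unadjusted p below 0.05. *Dhcr7* was the only member among these, at 8.37 ± 0.173 RPKM in control and 12.4 ± 2.05 RPKM in Dzip3-KD (SD, n = 2). Its difference was 0.50 (SE 0.19, 95% interval 0.07 to 0.93, limma adjusted p = 0.374). The 2 values in Dzip3-KD were 13.8 RPKM (Dzip3-KD 1) and 10.9 RPKM (Dzip3-KD 2), so the difference rested more on Dzip3-KD 1. Both Dzip3-KD values lay above both controls, but the share of all genes separated in this way by label was not computed. Without moderation of the spread, *Fdft1* joined *Dhcr7* below 0.05 unadjusted, and neither was called. *Idi1* went from 17.9 ± 0.638 to 13.7 ± 2.13 RPKM, a difference of -0.38 (interval -0.82 to 0.07), and *Fdft1* from 8.88 ± 0.337 to 6.81 ± 0.140 RPKM, a difference of -0.34 (-0.74 to 0.06). Without Dzip3-KD 1 the value of *Idi1* was -0.23. With the set as a block it was -0.06, but the set term there comes only from Ring1B-KD 2 against Ring1B-KD 1. Control and Dzip3-KD each lie in 1 set, so -0.06 does not separate set from label. *Lss* differed by -0.31 and *Sqle* by -0.13, while *Insig1* (0.06) and *Srebf2* (0.08) were within 0.1 of 0. Without Dzip3-KD 1, *Lss* was at -0.08 and *Sqle* at -0.01. These counts of 3 higher and 4 lower members had a median of -0.13, beside -0.07 over all genes. Both comparisons share the control libraries, so their values are given side by side only. Between Dzip3-KD and Ring1B-KD, 0 of 7 members and 0% of genes were called (534 genes, no member among them, below 0.05 unadjusted), and members ranged from -0.39 for *Lss* to 0.41 for *Dhcr7* with limma adjusted p from 0.864 to 0.990.

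**Figure D2:**
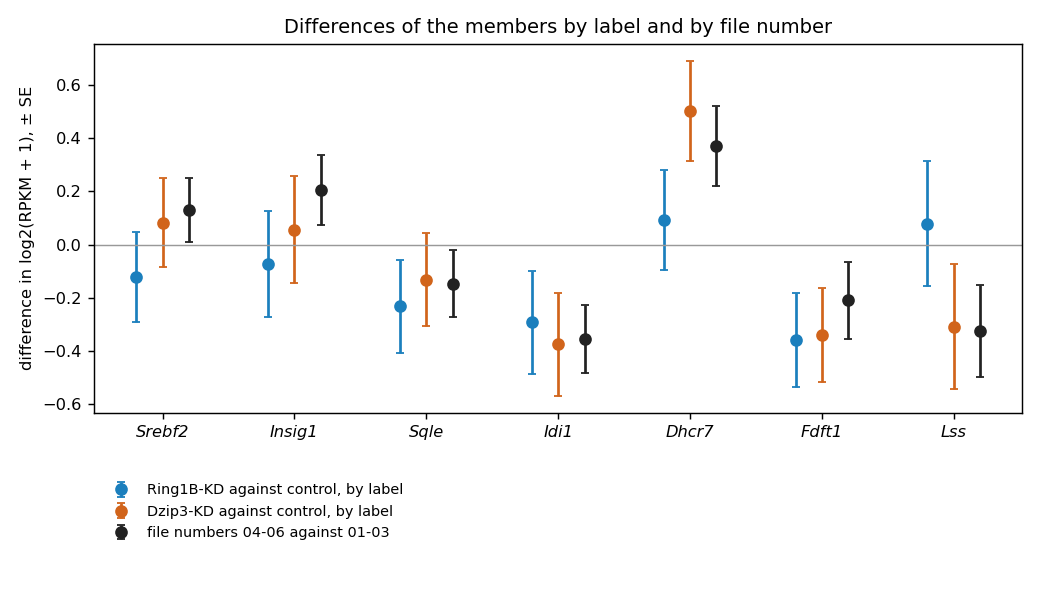
Differences on the log2(RPKM + 1) scale with standard errors from limma for the 7 members. Shown are Ring1B-KD against control and Dzip3-KD against control by label, and the last against the first set of file numbers. Members lie on both sides of 0 in each comparison, and *Dhcr7* in Dzip3-KD against control has the highest value (0.50).

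Between the sets of file numbers, the members split in direction. The last set against the first called 0 of 7 members, where 5.53% of all genes were called (638 genes, of which 3.09% of all tested were higher and 2.44% lower in the last set). An unadjusted p below 0.05 was reached by 2672 genes, including *Idi1* and *Dhcr7*, and without moderation by *Idi1* alone of the members. *Idi1* was at 17.4 ± 1.09 RPKM (SD, n = 3) in the first set and 13.4 ± 1.58 RPKM in the last, a difference of -0.35 (SE 0.13, 95% interval -0.64 to -0.07, limma adjusted p = 0.138). *Dhcr7* was at 8.45 ± 0.196 and 11.4 ± 2.26 RPKM, a difference of 0.37 (SE 0.15, interval 0.03 to 0.71, limma adjusted p = 0.180). The value of *Dhcr7* rested in part on Dzip3-KD 1, without which it was 0.23.

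*Lss*, at 4.82 ± 0.625 and 3.69 ± 0.805 RPKM, differed by -0.32 (interval -0.71 to 0.06), and by -0.17 without Dzip3-KD 1. *Fdft1* (-0.21) and *Sqle* (-0.15) had the same sign as *Idi1*, and the regulators *Insig1* (0.21, interval -0.09 to 0.50) and *Srebf2* (0.13, -0.14 to 0.40) the sign of *Dhcr7*. Without Ring1B-KD 1, *Insig1* was at 0.10, *Srebf2* at 0.05 and *Fdft1* at -0.34, and without control 1 *Fdft1* was at -0.13 and *Srebf2* at 0.20. *Sqle* was at -0.08 without Ring1B-KD 2 and at -0.24 without Dzip3-KD 2. Thus 3 members were higher and 4 lower, with a median of -0.15 beside -0.04 over all genes, and the same 3 to 4 split was found after scaling to a common 75th percentile. *Dhcr7* was the 1 member whose 3 values in the last set all lay above the first set, as for 13.1% of all genes. *Idi1* and *Lss* were the 2 whose values all lay below, as for 15.5% of all genes.

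The condition word in the file name was compared within the sets, with the set as a block. For Ring1BKD against control by word (control 2 against control 1 by label in the first set, Dzip3-KD 1 against Ring1B-KD 2 in the last), 0 of 7 members were called and 0.416% of all genes (48 genes, all higher). Below 0.05 unadjusted were 959 genes and no member. *Dhcr7* differed by 0.04 in the first set and 0.52 in the last, and *Lss* by -0.07 and -0.44. *Sqle* differed by 0.07 in both sets, and *Idi1* by -0.07 and -0.08. *Fdft1* differed by -0.07 and -0.02. *Insig1* (0.11 and -0.08) and *Srebf2* (-0.11 and 0.11) took opposite signs in the sets. Hence 5 of 7 members kept their sign across the sets, beside 59.2% of all genes. In the blocked fit 3 members were higher and 4 lower, but 6 were higher after scaling to the 75th percentile, which moved the median of all genes from -0.08 to 0.01. For comparison, *Rnf2* itself differed by -0.56 and -0.54 in the sets, with a limma adjusted p of 0.232.

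For Dzip3KD against control by word (Ring1B-KD 1 against control 1 by label in the first set, Dzip3-KD 2 against Ring1B-KD 2 in the last), 0 of 7 members and 0% of all genes were called. Below 0.05 unadjusted were 752 genes and no member. *Fdft1* differed by -0.42 in the first set and 0.01 in the last, *Srebf2* by -0.29 and 0.08, and *Sqle* by -0.11 and 0.31. *Idi1* also changed sign between the sets, from -0.17 to 0.22. *Insig1* kept its sign (-0.27 and -0.16), as did *Lss* (0.22 and 0.02) and *Dhcr7* (0.06 and 0.20). That made 3 of 7 members with 1 sign in both sets, beside 51.9% of all genes. *Dzip3* itself differed by -0.57 and -0.32. Both word comparisons share the libraries with the word control.

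Whether the members moved together was described library by library, as the deviation of each from its own mean over the 6 libraries. Above their own mean were 5 of 7 members in control 1 and in control 2, 2 in Ring1B-KD 1, 2 in Ring1B-KD 2, 3 in Dzip3-KD 1 and 5 in Dzip3-KD 2. Over all genes tested the shares were 59.3%, 49.8%, 48.9%, 53.9%, 37.1% and 53.4% in this order. Single members deviated by up to 0.46 (*Dhcr7*) and -0.46 (*Lss*), both in the library labelled Dzip3-KD 1. In Ring1B-KD 1, *Lss* stood at 0.33 and *Insig1* at -0.32. In no library did all 7 lie on 1 side. Measured from the mean of their own set, members above it numbered 5, 6 and 2 in the first set and 3, 2 and 5 in the last. Over all genes tested these shares were 58.9%, 46.2% and 46.2% in the first set and 59.3%, 34.5% and 58.1% in the last. No correlation is given, since the libraries form 2 sets of 3.

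**Figure D3:**
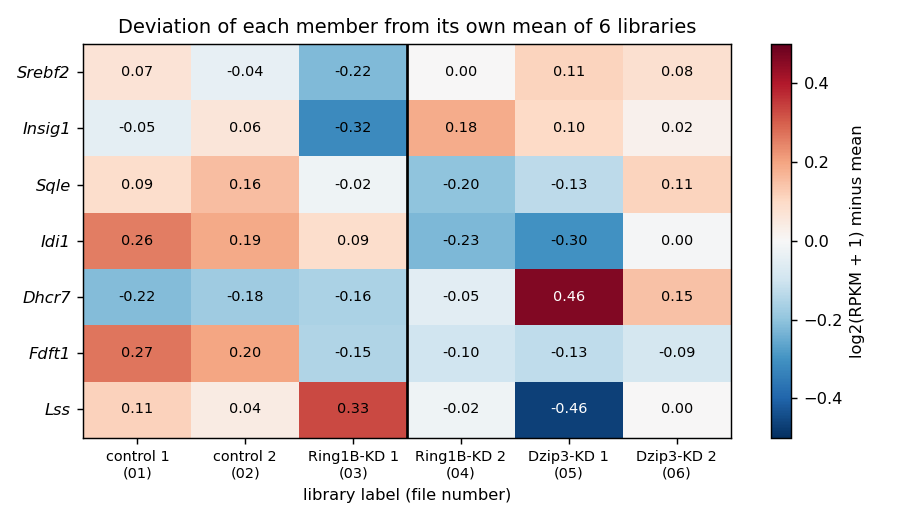
Deviation of each member from its own mean over the 6 libraries, on the log2(RPKM + 1) scale, with libraries in file order as columns and members as rows. Each library holds both positive and negative values, with the extremes 0.46 (*Dhcr7*) and -0.46 (*Lss*) in Dzip3-KD 1.

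The mean deviation profile of the members was then set against single genes, as the root mean square of the log2 differences over the 6 libraries among the 5504 genes that averaged 5 RPKM or more. The 5 most like it were *Gatad2b* (0.034), *Crkl* (0.039), *Cdc42* (0.041), *Shisa5* (0.041) and *Cd2ap* (0.042), none of them on a list of sterol genes used here. This mean profile was nearly flat (-0.06 to 0.08), so closeness to it largely ranks genes by a small spread over the libraries, and nothing about the members is read from it.

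The other genes of the pathway were read from the same fits, and in the comparisons by label and by word 0 of them were called. Between the sets, 2 of the 15 other enzymes of cholesterol synthesis passed the test, 1 in each direction, beside the 5.53% of all genes called. *Ebp*, the sterol isomerase that acts a few steps before *Dhcr7*, fell from 10.8 ± 0.349 to 5.66 ± 0.524 RPKM (SD, n = 3), a difference of -0.82 (SE 0.13, limma adjusted p = 0.0119). *Lbr*, a sterol reductase that is also a receptor of the nuclear lamina, rose from 14.6 ± 2.41 to 25.7 ± 0.589 RPKM, a difference of 0.79 (SE 0.14, limma adjusted p = 0.0151). *Mvd*, named after its values were seen, differed by -0.78 with a limma adjusted p of 0.0504. The 15 enzymes had 5 higher and 10 lower and a median of -0.09, beside -0.04 over all genes tested, of which 44.7% were higher.

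The other genes of sterol sensing and SREBP processing had 4 of 5 higher in the last set (44.7% of all genes), a median of 0.34 beside -0.04 over all genes, and 0 calls. Of these *Mbtps2*, 1 of the proteases that cut SREBP2, differed by 0.65 (limma adjusted p = 0.0897) and *Insig2* by 0.56 (0.0862). Uptake and transport had 3 of 5 tested genes higher, with *Npc1*, which exports cholesterol from lysosomes, risen from 3.91 ± 0.395 to 6.48 ± 0.765 RPKM (0.60, SE 0.15, limma adjusted p = 0.0437). *Npc1* overlaps *3110002H16Rik* and *Gm15956* on the other strand, so reads of these genes cannot be told apart. Its whole reads were not recovered. Efflux and storage had 5 of 5 tested genes higher with a median of 0.58, but *Apoe* (0.00446) and *Nr1h2* (0.12) lay near 0, and 1 of the 5 was called. This was *Abcg1*, a sterol exporter, which rose from 0.843 ± 0.0826 to 2.54 ± 0.639 RPKM (0.92, SE 0.18, limma adjusted p = 0.0215). In fatty acid synthesis 6 of 10 genes were higher and 4 lower, and *Fasn*, the fatty acid synthase, fell from 19.6 ± 1.83 to 11.2 ± 0.0253 RPKM (-0.75, SE 0.12, limma adjusted p = 0.0124). The isoprenoid branches had 1 of 6 higher and 0 calls.

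All 5 of these calls ended without moderation of the spread (adjusted p from 0.0557 to 0.114). *Ebp* also lost its call without Dzip3-KD 2, and *Fasn* and *Lbr* lost theirs without Ring1B-KD 2 or without Dzip3-KD 2. The call of *Npc1* ended without any 1 of the 6 libraries, and that of *Abcg1* without any 1 except Dzip3-KD 1, and both calls also ended without the filter on low values (adjusted p 0.0756 and 0.0611). *Mvd* passed the test without Dzip3-KD 1 (adjusted p 0.0332) and with the word as a block (0.0256).

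**Figure D4:**
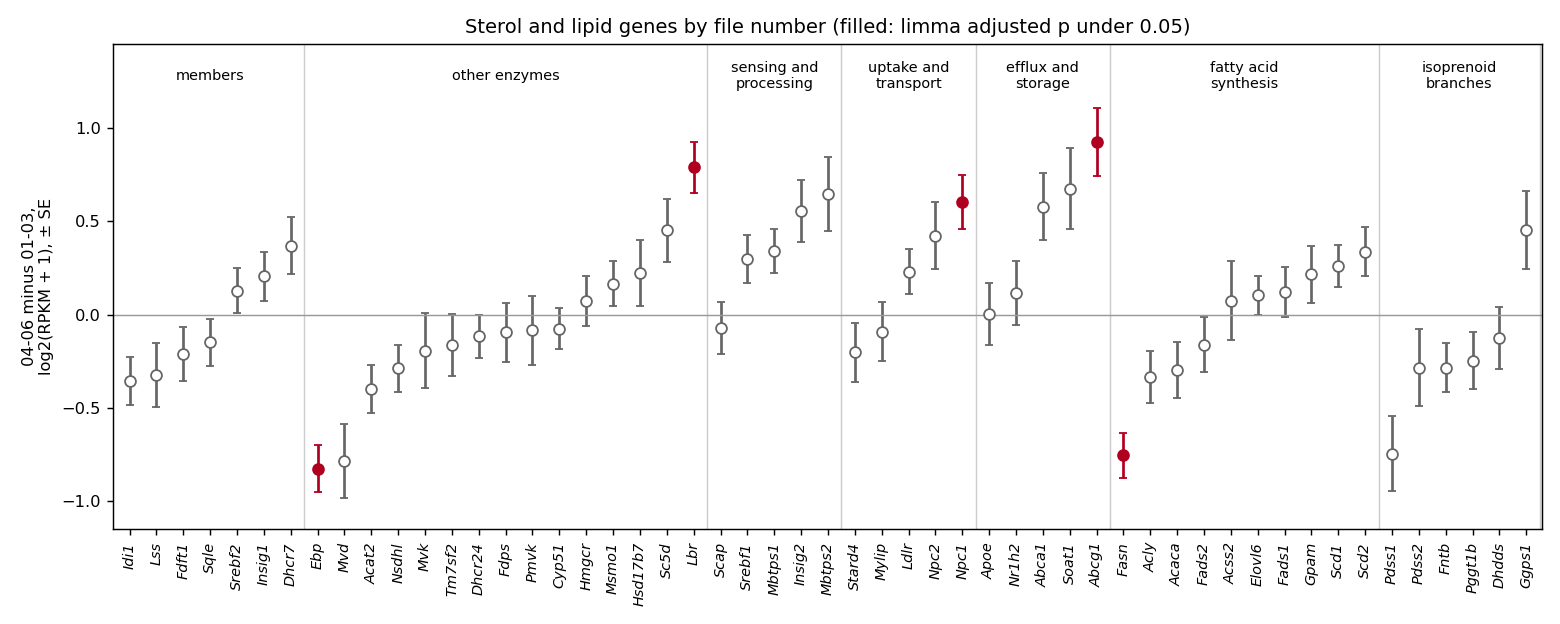
Difference between the last and the first set of file numbers on the log2(RPKM + 1) scale for the members and the other genes of sterol and lipid metabolism, grouped by list from left to right, with bars for the standard error and filled points for genes called by limma at an adjusted p below 0.05. Called genes are *Ebp*, *Fasn*, *Lbr*, *Npc1* and *Abcg1*, and 0 of the 7 members are among them.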

How the data were processed

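RNA-seq was performed on 6 libraries of E14 mES cells. The study states that libraries from a stranded mRNA kit were read on a MiSeq system and aligned to mm9 with 1 mismatch allowed, and reads mapped uniquely to a gene were used. The authors deposited RPKM values, 1 list per library, without pooling; the annotation and software versions are not given in the sources used here. RPKM corrects for depth and exon length but not for RNA composition.

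The labels gave each library its group and number. limma 3.58.1 (R 4.3.3, variance trend) was fitted to log2(RPKM + 1) over all 6 libraries, after dropping genes averaging under 0.5 RPKM, which left 11538. Label and set contrasts had no covariate, and word contrasts had the set as a block. Whole reads were recovered for 15431 genes (92.6%) as multiples of 1 read, within 0.02, using GENCODE M1 transcript lengths on mm9. In 1223 sampled genes above 0 in all 6 libraries and averaging over 1 RPKM, whole multiples were found for 92.3%. After random factors with an SD of 5% the share was 0%. This check was made before reads were matched to a whole exon length, so that step was not tested. At this depth 3 reads on 2 kb correspond to 0.419 to 0.497 RPKM. The code was tested on simulated data. Alternatives were another pseudocount, no filter, 75th percentile scaling, quantile normalization, no moderation, blocks by replicate number, set or word, and leaving out each library.

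The members and the gene lists were chosen with earlier results of these data known. All members were named with every value, other genes where called or, for *Mvd*, *Mbtps2*, *Insig2*, *Apoe* and *Nr1h2*, after their values were seen, and the 5 genes nearest to the members' mean profile.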

Additional observations from a re-analysis of the deposited data

How the results depend on the processing

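No member was called under any alternative run, and between the sets 0 of 84 member values reversed; depth limits the lower members, since *Lss* had as few as 57 reads. Counts of all called genes were less stable. For Dzip3-KD against control (0 genes), the replicate block gave 1 and leaving out 1 library 0 to 27, with 25 and 27 without Ring1B-KD 1 or 2. Between the sets (638 genes), no filter gave 285, no moderation 26, and leaving out 1 library 67 to 359, with 67 without Dzip3-KD 2. For the word Ring1BKD (48 genes), pseudocount 0.1 gave 21, no filter, no moderation and no set block each 0, and leaving out 1 library 3 to 61; for the word Dzip3KD (0 genes) leaving out 1 library gave 0 to 4. A lone library left in a group was assumed to vary like the others. Same-numbered libraries did not deviate together (correlations -0.04, -0.24 and 0.04 for control with Ring1B-KD, control with Dzip3-KD and Ring1B-KD with Dzip3-KD); the replicate block left the other label counts at 0, and the crossed pairing of control and Dzip3-KD, added after seeing the data, called 0 genes. Reversed, with no call and the cause not tested, were these log2 differences. With the set as a block, Dzip3-KD against control gave *Sqle* 0.0456, *Insig1* -0.45, *Lss* 0.0437 and *Srebf2* -0.14, and Dzip3-KD against Ring1B-KD gave *Idi1* 0.0735, *Insig1* -0.12 and *Fdft1* -0.00546. In these blocked fits the set term comes only from Ring1B-KD 2 against Ring1B-KD 1. The blocked estimates for Dzip3-KD against Ring1B-KD are thus by design those without Ring1B-KD 1. For the word Ring1BKD, 75th percentile scaling gave *Idi1* 0.0338, *Fdft1* 0.0533 and *Srebf2* 0.11, and quantile normalization 0.0214, 0.0525 and 0.0900. Leaving out 1 library, Ring1B-KD against control ranged from -0.33 to 0.18 for *Insig1* and -0.10 to 0.26 for *Lss*. Dzip3-KD against Ring1B-KD ranged from -0.0198 to 0.22 for *Sqle*, -0.24 to 0.0735 for *Idi1*, -0.12 to 0.38 for *Insig1* and -0.00546 to 0.0434 for *Fdft1*. The word Ring1BKD ranged from -0.0359 to 0.17 for *Sqle*, -0.17 to 0.0294 for *Idi1*, -0.11 to 0.13 for *Insig1*, -0.17 to 0.0725 for *Fdft1* and -0.15 to 0.14 for *Srebf2*. The word Dzip3KD ranged from -0.11 to 0.31 for *Sqle*, -0.17 to 0.22 for *Idi1*, -0.41 to 0.00136 for *Fdft1*, -0.0218 to 0.26 for *Lss*, -0.0250 to 0.29 for *Dhcr7* and -0.25 to 0.0402 for *Srebf2*.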
